A study of Mus musculus with 18 samples.

Results

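Apigenin given alone, without crystals, was examined in wild-type (WT) mouse bone marrow-derived macrophages (BMDMs) over all genes whose FPKM was 1 or more in 3 or more of the study's 18 libraries, which left 12025 of 55450 genes. FPKM, as deposited, is the number of fragments of a gene scaled to its transcript length and to the mapped total. The comparison sets WT + apigenin against WT non-treated, 3 libraries each and 6 in all. Both groups were marrow cells of WT mice, grown for 7 days in medium conditioned by L929 cells and then given GM-CSF (20 ng/ml) for a further 24 hours. They were then kept for 6 hours in medium with 1% serum, with or without apigenin at 25 µM. The same contrast under monosodium urate (MSU) crystals, the crystals of gout, at 0.2 mg/ml came from WT + MSU + apigenin and WT + MSU, 3 libraries each. CD38KO cells, which lack CD38, entered here only as libraries that share the estimate of the spread and in the check of Cd38. For the 6 apigenin libraries the sample titles name one set as given crystals and the treatment field names the other. The titles were used, and the headings of the count columns name the libraries in the same way. The replicates are described as biological, but nothing in the sources says how many mice or cultures they came from, so the p-values measure the spread between these libraries. The marrow macrophages are a culture model, and cells of other kinds that grow from marrow can remain in it.

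CD38 is an ectoenzyme that breaks down NAD, and apigenin is a plant flavonoid that inhibits it. Apigenin is not specific to CD38, and flavonoids of this kind also bind protein kinases such as casein kinase II. Macrophages sense microbes and crystals through Toll-like receptors and inflammasomes. These receptors turn on short-lived transcripts for cytokines, chemokines, transcription factors and the inhibitors that end the response, while transcripts for ribosomes, metabolism and lysosomes are long-lived and abundant.

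The WT non-treated libraries held 64442926 to 75322278 counts (median 74451933) and the WT + apigenin libraries 65502270 to 83209648 (median 66940416). The RNA was polyadenylated, from bulk cultures, and fewer cells of a type and less RNA per cell cannot be told apart in it. Macrophage markers were abundant in all 6 libraries (10 of 10 tested, summed level 19708 to 24054 CPM in WT non-treated and 47220 to 61395 CPM in WT + apigenin). Markers of B cells summed to 39.4 to 65.4 CPM in WT non-treated and 37.4 to 53.8 CPM in WT + apigenin, with 3 of 6 at 0 counts, Ms4a1 and Pax5 among them. Those of T cells summed to 2.13 to 11.1 CPM and 2.14 to 13.4 CPM, with Cd3g and Cd8a of 6 at 0 counts. CPM stands for the counts of a gene relative to the total of its library, here after TMM (trimmed mean of M values) scaling. Replicate 3 stood apart in both groups. Xist, the RNA of the silenced X chromosome, was at 0, 0.162 and 53.8 CPM in WT non-treated replicates 1 to 3 and 0.0730, 0.289 and 69.6 CPM in WT + apigenin. Summed neutrophil markers were 8.79 CPM in WT non-treated replicate 3 and 185 to 196 in the other 2, and 25.2 CPM in WT + apigenin replicate 3 and 218 to 272 in the other 2. Summed fibroblast markers were 588 CPM in WT non-treated replicate 3 against 2219 to 2679 in replicates 1 and 2, and 1529 CPM in WT + apigenin replicate 3 against 4702 to 6129, and their part in the results was not tested.

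More genes fell than rose with apigenin alone. A gene was called when its edgeR adjusted p was under 0.05 and its log2 fold change (log2FC, apigenin over non-treated) was at least 1 in size, and "not called" covers genes that missed either threshold. By this rule 1573 genes rose (13.1% of the 12025) and 2664 fell (22.2%). The libraries of the groups did not overlap for 1507 of the genes that rose and 2583 of those that fell. Nearly all called genes were thus apart, so a lack of overlap adds little to a call. Its share over all tested genes is not given here. Falls were also larger than rises. Among called genes, 1112 fell and 78 rose by at least 2 on the log2 scale, and 282 fell and 29 rose by at least 3. Without replicate 3 of both groups the counts were 1376 genes higher and 2404 lower, and replicate 3 alone, with its spread taken from the other groups, gave 616 and 1511. With the treatment field in place of the title they were 1711 and 2934, of which 1299 and 2475 were also called by the title.

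These directions are relative to the other genes of the library. The TMM factors were 0.667 to 0.837 in WT + apigenin and 1.16 to 1.31 in WT non-treated, and the 20 most counted genes held 23.5% to 27.2% and 16.02% to 17.2% of the counts. When the counts were scaled by library totals alone, the median log2FC of all tested genes went from −0.02 to −0.71, and 129 genes were called higher and 4470 lower, so that rises were 2.80% of the calls in place of 37.1%. With limma on log2(FPKM + 0.5), 124 were called higher and 3998 lower. The sources name no added RNA of known amount, so "rose" and "fell" are used here for the change relative to the bulk of the genes, on the TMM scale.

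**Figure D1:**
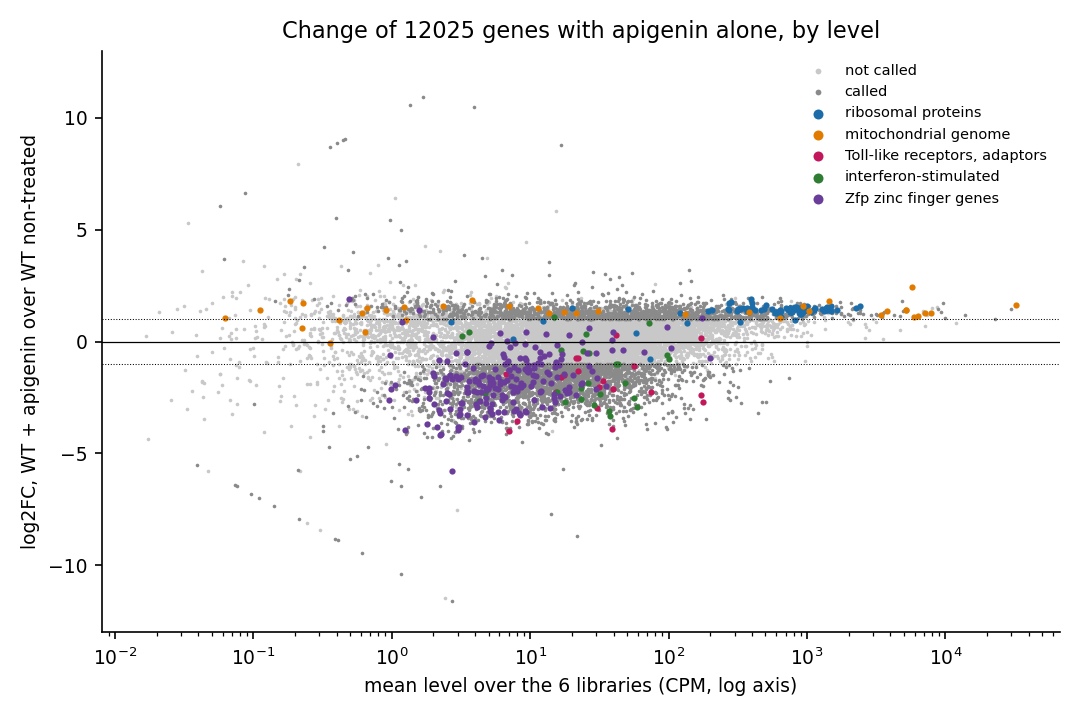
Log2FC of WT + apigenin over WT non-treated (y axis) against the mean level over the 6 libraries in CPM (x axis, log scale), 1 point per gene, with 5 genes that had no count in these libraries left out. Ribosomal protein genes and genes of the mitochondrial genome lie above 0 at high levels, and most Toll-like receptor genes, interferon-stimulated genes and Zfp zinc finger genes lie below 0. With scaling by library totals the points shift down, to a median of −0.71.

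The gene for apigenin's own target rose. Cd38 was at 18.4, 25.4 and 19.1 CPM in WT non-treated replicates 1 to 3 and at 57.6, 71.5 and 74.8 CPM in WT + apigenin (log2FC 1.69 ± 0.36, adjusted p = 0.00142). Every apigenin library lay above every non-treated library, by more than the spread within either group. In CD38KO non-treated cells Cd38 was at 0.498 ± 0.225 CPM (SD, n = 3), far under every WT library, as their label says. The rise of Cd38 stayed positive but fell just short of the fold threshold when the counts were scaled by library totals (log2FC 0.99, adjusted p = 0.0332) and with limma on log2(FPKM + 0.5) (log2FC 0.97, adjusted p = 0.00961), and replicate 3 alone did not give a call (log2FC 1.97, adjusted p = 0.0739).

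Of 23 genes of NAD metabolism, 3 rose (13.04% against 13.1% of all tested genes) and 7 fell (30.4% against 22.2%), with a median log2FC of −0.29 against −0.02 for all tested genes. Besides Cd38, the genes that rose were Bst1 (log2FC 1.76 ± 0.13, adjusted p = 1.17e-06), which encodes the CD38 paralog CD157, and Sirt2 (log2FC 1.27 ± 0.41, adjusted p = 0.0187), a cytosolic NAD-dependent deacetylase, whose call was lost without WT non-treated replicate 1 (log2FC 1.11, adjusted p = 0.0724) or replicate 3 (log2FC 1.24, adjusted p = 0.0505). Sirt1, the nuclear deacetylase of the same family, fell from 21.9, 25.4 and 27.8 to 3.28, 4.09 and 6.43 CPM (log2FC −2.44 ± 0.72, adjusted p = 0.0112), with no overlap between the groups. Parp14 (−2.44) and Parp9 (−2.18), both ADP-ribosyltransferases, Nmnat1 (−2.19), which makes NAD in the nucleus, and Tnks (−1.37), which encodes tankyrase, also fell. Nampt, the rate-limiting enzyme of NAD salvage, had a log2FC of −0.29 (adjusted p = 0.463), and Sirt3, the mitochondrial deacetylase that acts on SOD2, 0.48 (adjusted p = 0.187). Neither passed the test, nor did Sod2 itself, the mitochondrial superoxide dismutase (log2FC 0.40 ± 0.27, adjusted p = 0.233).

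Of 16 inflammasome genes, 0 rose and 3 fell (median log2FC −0.40), 18.8% against 22.2% of all tested genes. With library totals 9 were called lower (median log2FC −1.09), where 4470 of all 12025 tested genes were (median −0.71). Without WT + apigenin replicate 3, 5 were lower, where 2503 of the 12025 were. Casp1, the protease that cleaves pro-IL-1β, was at 74.4, 68.5 and 100.2 CPM in WT non-treated and 32.2, 35.9 and 45.2 CPM in WT + apigenin (log2FC −1.10 ± 0.18, adjusted p = 2.38e-04). All 3 apigenin libraries lay below all non-treated ones, and without WT non-treated replicate 3 the change was under the fold threshold (log2FC −0.92, adjusted p = 0.00113). The others were Nlrc4, a sensor that assembles an inflammasome on bacterial flagellin (−1.93), and Naip2, which detects the rod protein of bacterial secretion systems for it (−1.39). Nlrp3, the sensor of crystals, was at 30.9, 29.9 and 22.6 and 22.2, 24.9 and 20.1 CPM (log2FC −0.31 ± 0.36, adjusted p = 0.483), and its libraries overlapped. Il1b was at 4.55, 6.84 and 8.59 and 2.32, 4.49 and 5.75 CPM (log2FC −0.67 ± 0.61, adjusted p = 0.377), also with overlap.

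Among cytokine genes 4 of 15 fell (26.7% against 22.2% of all tested genes) and 0 rose. Their median log2FC was −0.46, −0.72 with the replicate block and −0.97 without WT + apigenin replicate 3. The genes that fell were Il10, an anti-inflammatory cytokine (−2.27), Osm, an IL-6 family cytokine (−2.22), Csf1, the growth factor of macrophages (−1.23), and Vegfa, an angiogenic factor (−1.18). Tnf was not called (log2FC −0.46 ± 0.76, adjusted p = 0.631). Il6, at 0.241, 0.192 and 0 and 1.61, 0 and 2.11 CPM, was at or near 0 in both groups.

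Chemokine genes went both ways, with 6 of 21 higher and 2 lower (median log2FC 0.53, which turned to −0.24 with library totals). These are 28.6% against 13.1% and 9.52% against 22.2% of all tested genes. The median was 0.31 without WT + apigenin replicate 3, 0.33 without WT non-treated replicate 3 and 0.85 without WT non-treated replicate 1. The largest rise was that of Ccl12, a ligand of CCR2, from 14.2, 7.03 and 1.89 to 86.1, 70.3 and 29.9 CPM (log2FC 3.01 ± 0.67, adjusted p = 0.00192). Ccl17 (2.09), a ligand of CCR4 on T helper type 2 cells, Cxcl3 (1.95), a ligand of the neutrophil receptor CXCR2, and Ccl6 (1.80) also rose, as did Cxcl14 and Ccl9 by smaller amounts. Cxcl10, which interferon induces and which draws T cells, was at 189, 50.2 and 37.9 CPM in WT non-treated and 11.04, 10.5 and 5.98 CPM in WT + apigenin (log2FC −3.33 ± 0.87, adjusted p = 0.00552). Its replicate 1 without apigenin was several times above the other 2, but even the lowest non-treated library lay above the highest with apigenin. Ccl4, which draws monocytes and T cells, fell as well (−2.12). Cxcl1, a chemokine for neutrophils, was not called (log2FC 0.68 ± 0.54, adjusted p = 0.301).

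Receptors and adaptors of the Toll-like receptor pathway fell almost throughout: 16 of 20 were lower and 0 higher (80.0% against 22.2% of all tested genes), with a median log2FC of −1.89. Tlr4, the receptor for lipopolysaccharide, was at 60.4, 51.8 and 50.1 CPM in WT non-treated and 5.57, 7.83 and 7.04 CPM in WT + apigenin (log2FC −2.99 ± 0.51, adjusted p = 2.64e-04). Tlr2, the receptor for bacterial lipoproteins, was at 408, 296 and 218 and 23.9, 51.4 and 67.4 CPM (log2FC −2.69 ± 0.66, adjusted p = 0.00376). For both the 3 apigenin libraries lay several fold below the lowest non-treated one. Tlr9, which senses DNA in endosomes, had the largest fall, from 20.2, 16.3 and 3.37 to 0.620, 1.54 and 0.360 CPM (log2FC −3.98 ± 0.89, adjusted p = 0.00204). Without apigenin its replicate 3 was lower than the other 2, and the groups still did not overlap. Of the adaptors, Ticam2 (−3.89) and Ticam1 (−1.58), which carry the signal to interferon genes, and Tirap (−3.53), which bridges to MyD88, fell more than Myd88 itself (−1.08). The kinase genes Irak2 (−1.76) and Irak3 (−1.48) fell, whereas Irak4 (−0.74) and the co-receptors Cd14 (0.16) and Ly96 (−0.71), which present lipopolysaccharide to TLR4, were not called.

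Interferon-stimulated genes fell in part. Of 26 tested, 11 were lower (42.3% against 22.2% of all tested genes) and 0 higher (median log2FC −1.86). Without WT non-treated replicate 1, 10 were lower and 2 higher, with a median of −1.05. Ifit1, which binds foreign RNA, was at 137, 43.4 and 26.7 CPM in WT non-treated and 10.3, 6.11 and 4.49 CPM in WT + apigenin (log2FC −3.31 ± 0.85, adjusted p = 0.00509). Isg15, a ubiquitin-like protein, was at 45.2, 11.9 and 20.03 and 6.17, 5.19 and 4.88 CPM (log2FC −2.25 ± 0.56, adjusted p = 0.00421), and Rsad2, which encodes viperin, at 188, 58.1 and 42.4 and 24.3, 11.8 and 14.9 CPM (log2FC −2.50 ± 0.80, adjusted p = 0.0177). In these genes replicate 1 without apigenin was the highest library by far, and the 3 apigenin libraries lay below every other one. Rsad2 lost its call without WT non-treated replicate 1 (log2FC −1.56, adjusted p = 0.117), WT + apigenin replicate 2 (adjusted p = 0.0619) or its replicate 3 (adjusted p = 0.0547). Ifit3 (−3.12), Cmpk2 (−2.82), a mitochondrial nucleotide kinase, and Usp18 (−2.70), which removes ISG15 from proteins, also fell. The transcription factor genes differed: Irf9, a part of the complex ISGF3, fell (−2.32), while that of its partner Stat2 was not called (−0.49). Oas1a, which makes a messenger that activates RNase L, was at 67.5, 33.3 and 53.5 and 82.4, 84.8 and 109 CPM (log2FC 0.84 ± 0.29, adjusted p = 0.0253), a positive change under the fold threshold, which it passed without WT non-treated replicate 1 (log2FC 1.09, adjusted p = 0.0141).

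Promoters of 4 of these genes are shown to set members that fell beside 1 that did not. Each runs from 250 bases before to 50 after the gene's start in RefSeq on GRCm38.p6, written along the gene's strand. Capitals mark the interferon-stimulated response element, searched on both strands as GAAA, 2 bases of any kind and GAAA again, where matches may overlap. The first 3 genes fell with apigenin and Oas1a was not called.
Ifit1, chr19:34640639-34640938, plus strand: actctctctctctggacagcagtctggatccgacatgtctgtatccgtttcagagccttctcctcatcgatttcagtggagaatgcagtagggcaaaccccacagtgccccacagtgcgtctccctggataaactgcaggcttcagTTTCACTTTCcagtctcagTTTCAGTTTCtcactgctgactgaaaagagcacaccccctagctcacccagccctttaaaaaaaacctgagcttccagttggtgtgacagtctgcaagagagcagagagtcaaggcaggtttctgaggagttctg
Isg15, chr4:156200769-156201068, minus strand: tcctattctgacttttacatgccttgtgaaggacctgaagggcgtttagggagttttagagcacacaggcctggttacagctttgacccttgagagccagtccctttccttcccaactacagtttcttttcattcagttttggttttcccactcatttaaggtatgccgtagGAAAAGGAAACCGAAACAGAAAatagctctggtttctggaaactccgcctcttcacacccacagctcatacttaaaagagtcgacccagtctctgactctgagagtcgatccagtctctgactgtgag
Rsad2, chr12:26456403-26456702, minus strand: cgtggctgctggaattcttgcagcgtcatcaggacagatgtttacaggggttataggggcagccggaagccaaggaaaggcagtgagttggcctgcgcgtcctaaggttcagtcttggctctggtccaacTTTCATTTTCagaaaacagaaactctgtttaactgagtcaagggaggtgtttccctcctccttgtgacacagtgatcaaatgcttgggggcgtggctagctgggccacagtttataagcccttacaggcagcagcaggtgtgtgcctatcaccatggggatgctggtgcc
Oas1a, chr5:120907476-120907775, minus strand: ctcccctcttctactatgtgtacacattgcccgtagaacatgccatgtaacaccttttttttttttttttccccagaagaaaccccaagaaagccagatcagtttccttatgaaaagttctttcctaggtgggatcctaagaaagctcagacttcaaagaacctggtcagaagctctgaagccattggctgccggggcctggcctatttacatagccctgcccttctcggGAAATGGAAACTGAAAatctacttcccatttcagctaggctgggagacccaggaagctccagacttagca
The element stood in 12 of the 21 promoters of the list that were matched, and in 3.44% of all 32851 promoters. Of the matched genes that fell, 6 held it and 4 did not, and of those not called, 6 held it and 5 did not. The element thus did not separate the members that fell from the others. A match is a run of letters and does not show that a factor was bound.

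Genes of the immediate early response are transcription factors made within minutes of a stimulus. They fell in 12 of 25 cases (48% against 22.2% of all tested genes) and rose in 0 (median log2FC −1.30). With the treatment field in place of the title 3 rose and 8 fell, with a median of −0.31. Jund, a subunit of AP-1, was at 100.3, 92.6 and 152 CPM in WT non-treated and 12.2, 22.7 and 16.2 CPM in WT + apigenin (log2FC −2.76 ± 0.25, adjusted p = 2.64e-06). Atf3, a stress factor that restrains inflammation, was at 364, 391 and 812 and 37.6, 70.9 and 177 CPM (log2FC −2.46 ± 0.59, adjusted p = 0.00326), and Myc at 29.1, 36.7 and 22.6 and 5.84, 11.6 and 7.01 CPM (log2FC −1.86 ± 0.42, adjusted p = 0.00224). The apigenin libraries of each lay below all non-treated ones. The Krüppel-like factors Klf2 (−3.14), Klf4 (−2.60) and Klf6 (−2.50) and Egr2 (−3.13) fell, and Fosl1, which encodes FRA1, had the largest fall in the list (log2FC −5.68 ± 1.47, adjusted p = 0.0051). Egr1, at 40.1, 54.3 and 47.2 and 34.2, 31.9 and 60.02 CPM (log2FC −0.17 ± 0.42, adjusted p = 0.76), and the nuclear receptor gene Nr4a2 (0.91) were not called.

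Inhibitors that end kinase and cytokine signals moved the same way. Of 22, 9 were lower (40.9% against 22.2% of all tested genes) and 0 higher, with a median log2FC of −1.37. Dusp6, the phosphatase of ERK, was at 38.9, 46.2 and 23.6 CPM without and 2.41, 2.42 and 4.45 CPM with apigenin (log2FC −3.55 ± 0.47, adjusted p = 3.57e-05), and Dusp1, the phosphatase of p38 and JNK, at 43.3, 46.1 and 88.002 and 5.88, 9.55 and 15.6 CPM (log2FC −2.51 ± 0.51, adjusted p = 0.00104). Both groups stood well apart. Spry4 (−3.35) and Spry2 (−2.52), which block receptor tyrosine kinases, and Rgs2 (−3.19), which shortens G-protein signals, fell too. Nfkbie, an inhibitor of NF-κB, fell as well (−1.72).

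Genes of transcription itself were among those that fell. Of 25 genes for elongation of transcripts, 10 were lower (40% against 22.2% of all tested genes) and 0 higher (median log2FC −0.98). Hexim1, which holds the elongation kinase P-TEFb inactive, went from 78.1, 73.6 and 67.7 to 3.76, 9.28 and 6.09 CPM (log2FC −3.52 ± 0.40, adjusted p = 1.06e-05). Every library with apigenin was under every library without. The cyclin T1 gene Ccnt1 (−2.38) and Cdk9 (−1.05), the subunits of that kinase, fell, as did Brd2, a reader of acetylated histones (−1.93), and Polr2a, the large subunit of RNA polymerase II (−1.39). The Zfp zinc finger genes are a large family of mostly DNA-binding repressors at low levels. They fell in 126 of 205 cases (61.5% against 22.2% of all tested genes) and rose in 1, Zfp106, with a median log2FC of −1.78. The largest fall of a Zfp gene was that of Zfp870, at 5.46, 5.68 and 4.96 and 0, 0 and 0.288 CPM (log2FC −5.77 ± 1.22, adjusted p = 0.00134). Of 39 splicing factor genes 6 fell and 1, Hnrnpa1, rose (median log2FC −0.17). Both shares are below those of all tested genes.

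Of 16 genes of the BCL2 family 5 were lower (31.2% against 22.2% of all tested genes) and 0 higher, and those that fell included protectors from apoptosis and activators of it. Mcl1, a short-lived protector from apoptosis, was at 797, 748 and 929.8 CPM in WT non-treated and 57.2, 128 and 197 CPM in WT + apigenin (log2FC −2.70 ± 0.46, adjusted p = 2.81e-04), and Bcl2l1, which encodes the protector BCL-XL, also fell (−1.74). The activators of apoptosis Bmf, from 22.6, 22.8 and 28.9 to 0.547, 2.93 and 0.865 CPM (log2FC −4.09 ± 0.67, adjusted p = 1.97e-04), Bcl2l11, which encodes BIM (−2.80), and Bid (−1.24) fell with them. Bcl2 was not called (−0.31). Of 16 p53 target and pathway genes 0 rose and 6 fell (37.5% against 22.2% of all tested genes). Sesn1 (−2.74) and the p53 inhibitor Mdm2 (−1.46) were among these 6. That count moved with single libraries, to 1 without WT + apigenin replicate 2, to 2 without its replicate 1 or without WT non-treated replicate 1 or 2, and to 3 without WT non-treated replicate 3. Of 22 mitosis genes 2 fell (9.09% against 22.2%), and of 22 replication genes 1 rose (4.55% against 13.1%) and 3 fell (13.6% against 22.2%). Of 17 genes for cyclins, their kinases and inhibitors 5 fell (29.4% against 22.2%) and 0 rose. In the last list the kinase inhibitor genes Cdkn2d (−2.92), Cdkn1b (−1.71) and Cdkn1a (−1.05) were lower, and 3 genes of the list were lower without WT + apigenin replicate 1 or WT non-treated replicate 1 or 2.

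**Figure D2:**
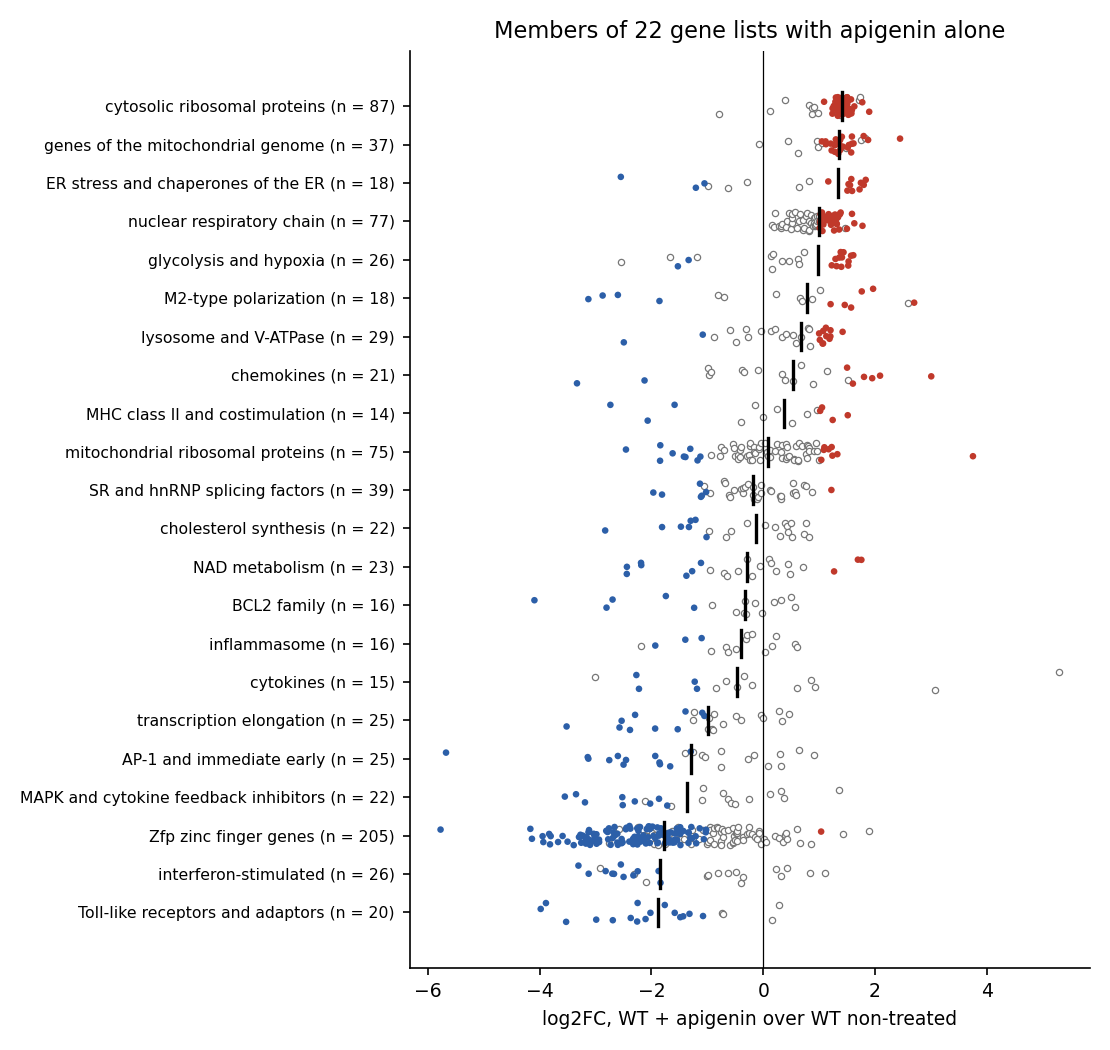
Log2FC with apigenin alone (x axis) of each tested member of 22 gene lists (y axis), where filled points were called (red higher, blue lower) and the black bar is the median. Open points were not called, as they missed the threshold of the adjusted p or that of the log2FC. Medians run from 1.41 for ribosomal proteins to −1.89 for Toll-like receptors and adaptors. With scaling by library totals all medians drop, and those of lysosome, chemokine, MHC class II and mitochondrial ribosomal protein genes turn below 0.

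Of 87 genes for cytosolic ribosomal proteins 74 rose and 0 fell (85.1% against 13.1% of all tested genes), with a median log2FC of 1.41, which stayed positive with library totals (0.72), where 2 were called higher and 1 lower. Rps20, of the small subunit, was at 143, 146 and 215 CPM without and 718, 647 and 511 CPM with apigenin (log2FC 1.90 ± 0.36, adjusted p = 6.59e-04), and Rpl27, of the large subunit, at 204, 199 and 331 and 622, 693 and 960.0 CPM (log2FC 1.63 ± 0.26, adjusted p = 1.56e-04). Both stood higher in each apigenin library than in any non-treated one. Ribosomal protein genes have many near-identical copies, between which the authors' counting could split reads, so a single member is less certain than the family. Their share of all counts was 3.72% to 5.06% in WT non-treated and 6.64% to 7.14% in WT + apigenin. The elongation factor gene Eef1a1, whose transcript starts with the same oligopyrimidine tract as theirs, rose from 4544, 4366 and 5232 to 12410.2, 12615 and 13693 CPM (log2FC 1.45 ± 0.14, adjusted p = 3.44e-06). A list of 12 noncoding genes held host genes of small nucleolar RNAs, whose spliced transcripts share that tract. Of the 12, 5 rose (41.7% against 13.1% of all tested genes), for example Snhg15 (1.43) and Snhg8 (1.40). The 1 gene of the list that fell was the nuclear RNA Neat1 (−2.02). The list had a median log2FC of 1.20 (0.67 without WT + apigenin replicate 3). By contrast, of 75 genes for ribosomal proteins of mitochondria 8 rose (10.7% against 13.1%) and 9 fell (12% against 22.2%). Their median log2FC was 0.08 (−0.60 with library totals). The number that rose ran from 3 without WT + apigenin replicate 3, through 5 without WT non-treated replicate 1 or 2, to 17 without WT non-treated replicate 3.

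Transcripts of the mitochondrial genome rose in 26 of 37 cases (70.3% against 13.1% of all tested genes) and fell in 0. Their median log2FC was 1.36 (0.64 with library totals). Without replicate 3 of both groups 16 rose. Transfer RNAs, which encode no protein, made up 22 of the 37, and 54.5% of them rose. The cytochrome oxidase gene mt-Co1 was at 18678, 17029 and 12219 CPM in WT non-treated and 49105, 48487 and 49427 CPM in WT + apigenin (log2FC 1.62 ± 0.22, adjusted p = 3.78e-05). The share of the counts held by the mitochondrial genome was 4.57% to 6.61% in WT non-treated and 9.60% to 10.2% in WT + apigenin, with no overlap. The nuclear genes for the respiratory chain rose in 37 of 77 cases (48.1% against 13.1%) and fell in 0. Their median log2FC was 0.99 (0.29 with library totals, where 1 was called). Without WT + apigenin replicate 3, 24 rose. Cox4i1 (1.78) and Cox8a (1.63) of cytochrome oxidase and Ndufa4 (1.59) had the largest called changes.

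Of 26 genes of glycolysis and hypoxia 13 were higher (50% against 13.1% of all tested genes) and 2 lower (median log2FC 0.98, 0.30 with library totals, where 0 were called higher). Gapdh was at 107, 206 and 237 CPM without and 533, 429.6 and 498 CPM with apigenin (log2FC 1.41 ± 0.48, adjusted p = 0.0235), and Pgk1 (1.57), Eno1 (1.52), Gpi1 (1.61) and Pkm (1.44) rose by similar amounts. Gapdh lost its call without WT + apigenin replicate 1 (log2FC 1.34, adjusted p = 0.0561) or WT non-treated replicate 1 (log2FC 1.14, adjusted p = 0.0944). The 2 that fell were Hk2, which encodes hexokinase 2 (log2FC −1.53 ± 0.31, adjusted p = 9.62e-04), and Pfkfb4, whose enzyme sets the level of an activator of phosphofructokinase (−1.33).

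Of 18 genes for chaperones and stress response of the endoplasmic reticulum 10 were higher (55.6% against 13.1% of all tested genes) and 3 lower (median log2FC 1.34, 0.62 with library totals, where 4 were called higher and 5 lower). Calr, the calcium-binding chaperone calreticulin, was at 944, 876 and 1092 CPM in WT non-treated and 2893, 2499 and 4232 CPM in WT + apigenin (log2FC 1.73 ± 0.21, adjusted p = 2.04e-05). Pdia6, a disulfide isomerase, was at 270.1, 247 and 329.8 and 934, 798 and 1289.8 CPM (log2FC 1.83 ± 0.23, adjusted p = 2.27e-05), and Hsp90b1, which encodes GRP94, at 749, 737 and 936 and 2238, 1806 and 3257 CPM (log2FC 1.59 ± 0.22, adjusted p = 5.68e-05). The apigenin libraries of all 3 genes lay above every non-treated library. Pdia4 (1.80) and Hyou1 (1.75) also rose, and Hspa5, the chaperone BiP, was not called (log2FC 0.64 ± 0.44, adjusted p = 0.232). The transcription factor gene Xbp1, spliced during stress of the organelle, fell from 60.03, 64.6 and 92.3 to 8.17, 22.8 and 6.14 CPM (log2FC −2.55 ± 0.65, adjusted p = 0.00483), with the co-chaperone gene Dnajb9 (−1.21) and the sensor kinase gene Eif2ak3 (−1.05).

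The promoters of 3 chaperone genes that rose are shown because the list shares a known element. Capitals mark the endoplasmic reticulum stress element, searched as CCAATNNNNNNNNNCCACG on both strands, in the same RefSeq windows.
Calr, chr8:84846882-84847181, minus strand: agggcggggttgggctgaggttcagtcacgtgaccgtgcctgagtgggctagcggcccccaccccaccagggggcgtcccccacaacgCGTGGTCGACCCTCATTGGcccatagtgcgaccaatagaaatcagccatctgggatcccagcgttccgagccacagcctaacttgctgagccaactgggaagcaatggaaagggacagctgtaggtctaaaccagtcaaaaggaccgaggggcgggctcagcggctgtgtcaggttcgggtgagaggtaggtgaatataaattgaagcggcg
Pdia6, chr12:17266339-17266638, plus strand: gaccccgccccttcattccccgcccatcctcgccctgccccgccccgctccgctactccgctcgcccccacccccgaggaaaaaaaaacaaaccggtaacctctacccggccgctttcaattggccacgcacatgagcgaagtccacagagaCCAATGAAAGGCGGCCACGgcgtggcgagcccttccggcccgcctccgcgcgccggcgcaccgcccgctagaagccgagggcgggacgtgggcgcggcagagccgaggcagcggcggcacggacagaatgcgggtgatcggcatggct
Hsp90b1, chr10:86705395-86705694, minus strand: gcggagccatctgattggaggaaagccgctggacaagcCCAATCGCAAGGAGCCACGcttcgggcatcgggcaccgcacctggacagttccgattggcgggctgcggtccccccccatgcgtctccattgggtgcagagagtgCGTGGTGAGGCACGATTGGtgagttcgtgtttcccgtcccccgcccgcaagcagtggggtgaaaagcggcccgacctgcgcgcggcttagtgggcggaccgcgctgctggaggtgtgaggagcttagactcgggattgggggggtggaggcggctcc
The element stood in 7 of the 15 matched promoters of the list and in 0.119% of all 32851 promoters. Of the matched genes that rose, 5 held it and 3 did not. The 3 that fell, Xbp1, Dnajb9 and Eif2ak3, did not hold it in these windows, and 2 of 4 genes not called, Hspa5 and Dnajc3, did.

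Heat shock proteins and their partners went both ways (median log2FC 0.43, −0.26 with library totals). Of 15 genes, 5 were higher (33.3% against 13.1% of all tested genes) and 4 lower (26.7% against 22.2%). Hspa8 (1.56) and Hsp90ab1 (1.23), made at all times, and Hspe1 (1.22), a chaperonin of mitochondria, rose. Among the 4 that fell were Dnajb1 (−2.38) and Bag3 (−2.13), a pair of co-chaperones, and Hspa1b (log2FC −1.15 ± 0.46, adjusted p = 0.0497), an inducible HSP70. Hspa1b was not called lower in 13 of 20 alternatives, the replicate block over 6 groups (log2FC −1.01, adjusted p = 0.0901) and each WT library but WT non-treated replicate 3 left out among them, and with the treatment field it was higher (log2FC 1.15, adjusted p = 0.0457). Without WT + apigenin replicate 1, 3 genes of the list were higher, and without its replicate 3, 2 were lower.

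Lysosome genes rose in 11 of 29 cases (37.9% against 13.1% of all tested genes) and fell in 2 (6.90% against 22.2%). Their median log2FC was 0.67 (−0.02 with library totals, where 0 were called higher). The count that rose rested on single libraries. Without WT + apigenin replicate 3, 3 rose and 3 fell, and without WT non-treated replicate 2, 5 rose. The cathepsin genes Ctsc (1.42), Ctsb (1.20) and Ctsl (1.20), for proteases of the lysosome, and Lamp1 (1.19), for a membrane protein, rose. The 2 that fell encode the transcription factors that drive lysosome genes, Tfeb, from 27.6, 49.6 and 39.4 to 5.82, 10.7 and 4.18 CPM (log2FC −2.49 ± 0.32, adjusted p = 2.74e-05), and Tfe3 (−1.08). Among the 10 genes with the most counts in WT + apigenin were Lyz2, which encodes lysozyme, at 17716, 16469.7 and 14050.3 and 42765, 49949 and 37782 CPM (log2FC 1.44 ± 0.31, adjusted p = 0.00149), Psap (1.01), Ctsb, Ctsd (1.07), Spp1, which encodes osteopontin (1.72), and Ftl1, the ferritin light chain (1.34), all higher. Fth1 (0.84) and Mmp12 (1.55) were not called.

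Markers of macrophage state held rises and falls, but the falls were not more frequent than over all tested genes. Of 18 genes linked to alternative (M2-type) activation 6 rose (33.3% against 13.1% of all tested genes) and 4 fell (22.2% against 22.2%). Their median log2FC was 0.79 (0.12 with library totals, 0.52 and 0.41 without WT + apigenin replicate 1 or 2 and 0.38 without WT non-treated replicate 3). Clec10a, a lectin for galactose sugars, was at 48.6, 46.3 and 20.5 CPM without and 299, 348 and 104 CPM with apigenin (log2FC 2.70 ± 0.46, adjusted p = 2.84e-04), and Mrc1, the mannose receptor, at 959, 915 and 503 and 3264, 2946 and 1861 CPM (log2FC 1.76 ± 0.28, adjusted p = 1.58e-04). In replicate 3 Clec10a was lower in both groups, and the groups did not overlap. Mgl2 (1.97), the close paralog of Clec10a, and Tgm2 (1.57) rose, while the transcription factor genes Egr2, Irf4 (−2.87), Klf4 and Myc fell. Arg1, which encodes arginase, was at 20.1, 44.2 and 3.39 and 197, 192 and 18.2 CPM (log2FC 2.59 ± 1.22, adjusted p = 0.0901) and was not called. Its replicate 3 was the lowest library of each group, and the groups overlapped through it, but each apigenin library lay above the non-treated library of its number. With the replicate block it was called over the compared groups only (log2FC 2.58, adjusted p = 0.0032) and not over 6 groups (log2FC 2.61, adjusted p = 0.0543), DESeq2 also called it (log2FC 2.64, adjusted p = 0.0392), and without replicate 3 of both groups it was not called (log2FC 2.59, adjusted p = 0.121). Of 15 genes linked to classical (M1-type) activation 0 rose and 2 fell (13.3% against 22.2%), Gpr18 (−4.06) and Irf5 (−1.01).

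Of 14 genes of antigen presentation 4 rose (28.6% against 13.1% of all tested genes) and 3 fell (21.4% against 22.2%). Their median log2FC was 0.38 (−0.37 with library totals, where 0 were called higher). Of the 14, 2 rose without WT + apigenin replicate 3 or WT non-treated replicate 1 and 1 without WT non-treated replicate 2, and the median ran from 0.16 to 1.03 without WT non-treated replicate 2 or 3. H2-DMa (1.51), which loads peptides, the invariant chain gene Cd74 (1.24) and the MHC class II genes H2-Ab1 (1.05) and H2-Aa (1.02) rose, the last 2 with overlap between the groups. Ciita, the master regulator of those genes, was at 16.7, 8.55 and 21.8 CPM in WT non-treated and 1.42, 3.53 and 2.11 CPM in WT + apigenin (log2FC −2.74 ± 0.60, adjusted p = 0.00176). Its groups did not overlap. Cd274, which encodes PD-L1 (−2.07), and Cd83 (−1.59) fell. Of 20 receptor genes for growth factors and cytokines 2 rose, Il3ra (1.28) and Csf2ra (1.08), and 5 fell, Il10ra (−2.47) and Tnfrsf1b (−2.01) by most. These shares, 10% higher and 25% lower, were near the 13.1% and 22.2% of all tested genes.

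Genes of iron and lipid handling changed one by one. Slc40a1, which encodes ferroportin, the only known exporter of iron, fell from 214, 226 and 357 to 18.03, 39.3 and 41.7 CPM (log2FC −3.01 ± 0.45, adjusted p = 9.90e-05). Its ligand hepcidin is encoded by Hamp, a hormone gene of the liver, which had 0 counts in the 3 non-treated libraries and 0.712, 0.289 and 1.42 CPM with apigenin (at least 72.3-fold higher, against 3 counts over the non-treated group, adjusted p = 0.00293). Of 16 iron genes 3 rose (18.8% against 13.1% of all tested genes) and 4 fell (25% against 22.2%), with a median log2FC of 0.39 (−0.31 with library totals, 0.26 with the replicate block and −0.10 without WT + apigenin replicate 1). Steap4, a metalloreductase, was at 0.0481, 0.0809 and 0 and 0.310, 0 and 0 CPM, with both groups at or near 0. In cholesterol synthesis 7 of 22 genes fell (31.8% against 22.2% of all tested genes) and 0 rose. The largest fall was that of Hmgcs1 (log2FC −2.83 ± 0.53, adjusted p = 5.37e-04), the enzyme that starts the pathway. Stard4 (−1.47), which carries sterol between membranes, fell with it. Insig1 (−1.30), which holds back the pathway's master regulators, and the enzyme genes Idi1 (−1.21) and Msmo1 (−1.01) also fell. Ch25h, which makes 25-hydroxycholesterol, was at 2.63, 1.95 and 1.74 and 0.219, 0.289 and 0.829 CPM (log2FC −2.24 ± 0.87, adjusted p = 0.0433), low but without overlap, and it was called without WT + apigenin replicate 3 only among the 6 fits with 1 library left out (log2FC −3.04, adjusted p = 0.0258). Olr1, the receptor of oxidized lipoprotein, was at 1.38, 1.69 and 0.545 and 1.04, 1.21 and 0.703 CPM (log2FC −0.29 ± 0.47, adjusted p = 0.625). Gpr176, an orphan receptor gene that overlaps Gm29232 on the same strand, was at 0.505, 36.3 and 0.186 and 35.3, 0.778 and 0.378 CPM, a wide spread in which the groups overlapped.

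Ahr, which encodes the aryl hydrocarbon receptor, was at 7.52, 8.64 and 7.09 CPM without and 1.28, 2.62 and 3.19 CPM with apigenin (log2FC −1.71 ± 0.48, adjusted p = 0.0082), and its repressor gene Ahrr also fell (−2.52). These were the 2 that changed of 9 genes of that pathway, 22.2% as over all tested genes, and its target Tiparp (−1.78) was not called. Nfe2l2, which encodes NRF2, was at 459, 429 and 536 and 38.7, 64.3 and 132 CPM (log2FC −2.60 ± 0.50, adjusted p = 6.38e-04). Among 20 NRF2 and glutathione genes 3 rose (15% against 13.1% of all tested genes), Tkt (1.30) and Taldo1 (1.08) of the pentose phosphate pathway and Gpx4 (1.01), and 5 fell (25% against 22.2%), including Sqstm1 (−1.75), Txnrd1 (−1.37) and Osgin1 (−2.34). The number that rose was 0 without WT + apigenin replicate 3 and 1 without WT non-treated replicate 1 or 2, and 3 fell without WT + apigenin replicate 1 or WT non-treated replicate 3. Clock genes were lower in 7 of 14 cases (50% against 22.2% of all tested genes) and higher in 2 (14.3% against 13.1%). Arntl, the activator BMAL1, fell (−1.58), and the repressor gene Nr1d1 rose (1.67) while its paralog Nr1d2 fell (−2.41).

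Of 17 scavenger receptors and C-type lectins 4 rose (23.5% against 13.1% of all tested genes, 2 genes without WT non-treated replicate 2) and 0 fell. Their median log2FC was 0.86 (0.56 without WT + apigenin replicate 3). Cd209a (log2FC 2.98, adjusted p = 0.0438), a lectin for microbial sugars, and Msr1 (1.57), which takes up modified lipoproteins, were in front. Cd209a lost its call in 14 of 21 alternatives, 5 of the 6 fits with 1 library left out among them. Other lists held few called genes. Of 11 genes of the liver X receptor pathway 1 rose and 3 fell, of 11 fatty acid synthesis genes 1 rose and 0 fell, and of 15 prostaglandin and leukotriene genes 2 rose and 1 fell. Of 20 genes of the ATF4 and amino acid response 2 fell and 0 rose, of 37 proteasome genes 2 fell and 0 rose, of 18 tRNA synthetase genes 1 rose and 0 fell, and of 15 replication-dependent histone genes 2 rose and 1 fell. In these 7 lists the shares ran from 0 to 13.3% higher and from 0 to 27.3% lower. Among markers of other cells, 1 of 7 for fibroblasts and 1 of 3 for dendritic cells rose, and 0 of 7 for neutrophils, 0 of 5 for endothelium, 0 of 2 for B cells, 0 of 1 for T cells and 0 of 1 for mast cells were called. Summed dendritic cell markers were 325 to 496 CPM in WT non-treated and 756 to 1593 CPM in WT + apigenin, while the 3 tested had a median log2FC of −1.60. Of the 10 macrophage markers 3 rose (30% against 13.1% of all tested genes), 0 fell and 7 were not called, with a median log2FC of 0.56.

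**Figure D3:**
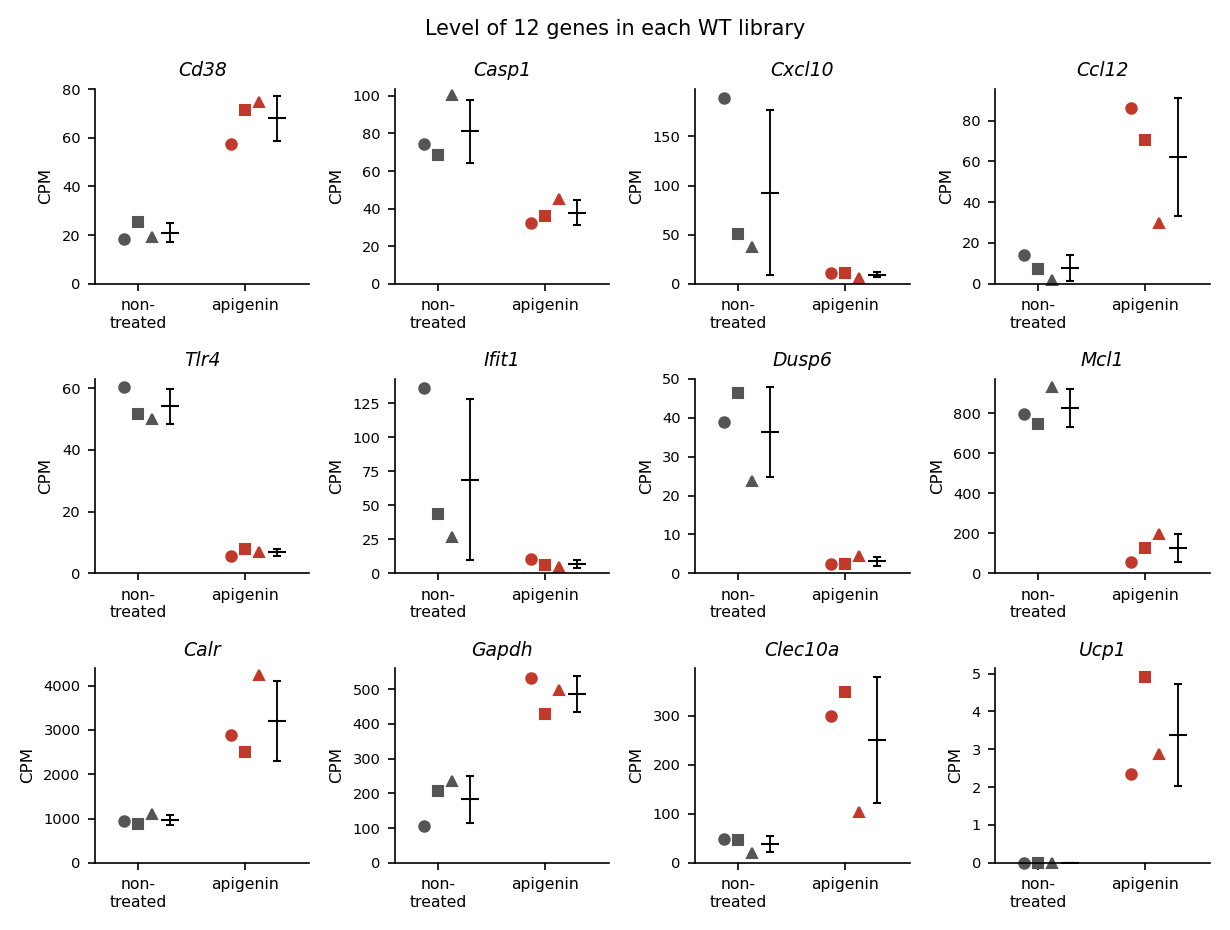
Level in CPM (y axis, from 0) of 12 genes in each WT library, non-treated in grey and apigenin in red, with a circle for replicate 1, a square for replicate 2 and a triangle for replicate 3, and the bar giving mean ± SD (n = 3). The groups do not overlap in any of the 12 genes, and Ucp1 has 0 counts in all 3 non-treated libraries.

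The 12 largest rises and 12 largest falls, among called genes with non-overlapping libraries, a mean of at least 5 CPM in the higher group and a named gene, came out as follows. Ugt1a1, which joins glucuronic acid to bilirubin and to flavonoids, was at 0, 0.212 and 0 CPM in WT non-treated and 16.003, 69.2 and 14.3 CPM in WT + apigenin (log2FC 8.77 ± 2.54, adjusted p = 0.0117). It shares all but its first exon with 8 other Ugt1a genes, and with MSU its levels were 0, 0 and 0 CPM without and 54.1, 0.187 and 0 CPM with apigenin, so its counts are uncertain. Cdh1, which encodes E-cadherin, rose from 2.81, 2.64 and 0.997 to 38.6, 27.6 and 9.66 CPM (log2FC 3.55 ± 0.66, adjusted p = 5.04e-04) and Nras, a small GTPase, from 34.5, 37.04 and 30.3 to 185, 187 and 253 CPM (log2FC 2.62 ± 0.40, adjusted p = 1.24e-04). The other rises were Ccl12 and Clec10a, the ribosomal pseudogenes Rpl7a-ps3, Rpl10-ps1, Rpl35a-ps2, Rpl15-ps3 and Rps26-ps1 (2.54 to 3.18), which are near copies of expressed genes, and Mrpl53 (3.75) and Tomm6 (2.79), which overlap other annotated genes. Counts for these 7 are uncertain.

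Of the 12 largest falls, Mfsd9, a transporter-like gene, had 5.03, 6.34 and 5.09 CPM in WT non-treated and 0 counts in the 3 apigenin libraries (at least 303-fold lower, against 3 counts over the group, adjusted p = 0.00214). Rsc1a1 (−7.70), which lies inside Ddi2, and Rab43 (−4.32) and Fam78a (−4.15), which overlap other genes on the same strand, are less certain. Kbtbd4 (−4.40), D17H6S53E (−4.49), Zfp870 and Mfsd9 overlap other genes on the opposite strand only. They are less certain if the authors' counting ignored the strand. Arrb1, which encodes β-arrestin 1, was at 18.3, 18.8 and 151 and 4.53, 1.94 and 1.10 CPM (log2FC −4.64 ± 1.67, adjusted p = 0.0307). Its non-treated replicate 3 stood several fold above the other 2, without it the call was lost (log2FC −2.88, adjusted p = 0.143), and it was also lost with the replicate block over 6 groups (log2FC −3.92, adjusted p = 0.0914) and without any 1 of the WT + apigenin libraries. Fignl1, a DNA repair protein, was at 6.11, 4.30 and 4.999 and 0.438, 0.253 and 0.0721 CPM (log2FC −4.33 ± 0.91, adjusted p = 0.00127). Tprn (−4.04), Bmf and Ifit1bl1 (−4.13) complete the set. By the rule of choice, all libraries with apigenin lay below those without.

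Some genes of liver and brown fat appeared with apigenin alone. They were chosen after their values were seen, among 8 called genes with 0 counts in every non-treated library. Such genes could pass the FPKM filter only through other libraries, those with apigenin among them. Their presence with apigenin, and the values of the test, therefore follow in part from the choice. This holds for Hamp, given above, as well. Apoa1, the main protein of high-density lipoprotein, was at 0.748, 3.56 and 3.75 CPM with apigenin (at least 240.2-fold higher, against 3 counts over the group, adjusted p = 0.00176). Ucp1, the uncoupling protein of brown fat, was at 2.35, 4.90 and 2.86 CPM (at least 302-fold, adjusted p = 8.75e-04), and Ttc36, a gene of liver and kidney, at 0.894, 1.23 and 0.558 CPM (at least 80.0-fold, adjusted p = 0.00273). All were low but present in each apigenin library, and also under crystals, where Apoa1 was at 4.03, 1.06 and 3.76 CPM with apigenin and 0, 0.0860 and 0 CPM without. The 10 hepatocyte genes looked up beside them, Alb and Ttr among them, had 0 counts in all 6 libraries. The reference gene of many PCR assays, Hprt, was at 143, 149 and 181 and 202, 217 and 266 CPM (log2FC 0.54 ± 0.20, adjusted p = 0.0321), a change under the threshold of 1.

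What genes that fell share was looked for in their structure, over the 10297 protein-coding genes tested, by 1 GENCODE M21 transcript per gene. The share that fell was highest for genes with few exons. Of 260 genes with 1 exon 43.5% fell and 11.9% rose (median log2FC −1.14), and of 1070 with 2 to 3 exons 41.96% and 10.1% (−0.99). Of 3266 genes with 13 or more exons 21.2% fell and 7.01% rose (−0.18). It was also highest for long transcripts. Genes were put in 5 classes of like size by transcript length. In the class of the shortest transcripts (180 to 1592 bases) 25.3% rose and 10.2% fell (median log2FC 0.59), and in the class of the longest (4691 to 40378 bases) 3.35% rose and 36.5% fell (−0.65). The order ran through all 5 classes. The 3' untranslated region gave the same order, from 20.2% higher and 13.1% lower in the shortest of 5 classes to 4.13% and 36.04% in the longest.

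The level of a gene went with its change too. In the lowest of 5 classes by mean level 4.17% rose and 36.6% fell, and in the highest, above 72.7 CPM, 28.4% rose and 7.72% fell. The mean level was taken over the same 6 libraries as the change, those with apigenin included. A fall therefore moves a gene toward a lower class and a rise toward a higher one, so part of this order is built in. Level, length and exon number are themselves related across genes, and their parts were not separated. The AU-rich motif UUAUUUAUU marks unstable transcripts. Of 572 genes with 1 copy in the 3' untranslated region 36.5% fell, of 139 with 2 or more 34.5%, and of 9570 without it 24.2%. Among genes of the middle class of 3' untranslated length, 23.6% with the motif and 26.7% without it fell and 6.30% and 9.56% rose, with median log2FCs of −0.38 and −0.17. Processed pseudogenes, copies of spliced transcripts of mostly abundant genes, rose in 33.9% of 1131 cases and fell in 1.95%.

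**Figure D4:**
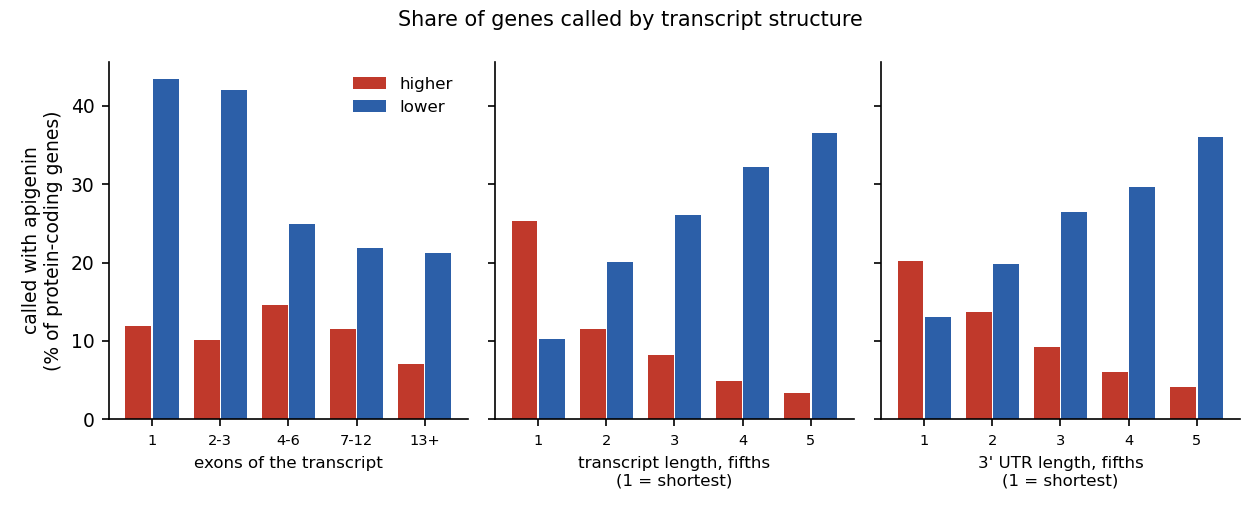
Share of tested protein-coding genes called higher (red) or lower (blue) with apigenin alone, in percent (y axis, from 0), by number of exons, by 5 classes of transcript length and by 5 classes of 3' untranslated length (x axes, shortest first). The share that fell drops from 43.5% with 1 exon to 21.2% with 13 or more, and climbs from 10.2% to 36.5% with transcript length.

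The same contrast under MSU crystals rests on 6 other libraries. There 2168 genes were higher with apigenin (18%) and 3107 lower (25.8%). Of the genes that fell with apigenin alone, 2242 also fell under crystals, which is 84.2% of the first list and 72.2% of the second. Of those that rose, 1214 rose in both, 77.2% and 55.996% of the lists, and 9 genes were called in opposite directions. Across the 12025 genes the log2FCs correlated at Pearson's r 0.818 and Spearman's rho 0.865, a description over genes, which are not independent, from contrasts that share no library. The medians of lists under crystals were 1.56 for ribosomal proteins, 1.87 for the mitochondrial genome, −2.11 for Toll-like receptors and adaptors and −2.65 for interferon-stimulated genes.

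A test of the difference itself, the interaction of apigenin with MSU, called 126 genes (1.05% of the 12025), 83 with a more negative effect of apigenin under crystals and 43 with a more positive one. With the replicate number as a block the count was 281 over all 6 groups and 226 over the compared groups only. Cxcl3, at 5.81, 3.87 and 4.33 and 18.03, 14.6 and 21.5 CPM without crystals, was at 66.8, 92.7 and 119 CPM with MSU and 8.01, 16.6 and 17.8 CPM with MSU and apigenin, so it was higher with apigenin alone and lower with both (interaction log2FC −4.67 ± 0.60, adjusted p = 0.0032). Eif4e, which binds the cap of messenger RNA (interaction log2FC −5.52 ± 0.72, adjusted p = 0.00338), Tgm2, an enzyme that cross-links proteins (interaction log2FC −3.94 ± 0.57, adjusted p = 0.00509), and Procr, the receptor of protein C (interaction log2FC −2.42 ± 0.30, adjusted p = 0.00314), showed the same pattern. Ifrd1, a transcriptional regulator, was at 53.7, 54.2 and 72.6 and 56.6, 55.7 and 77.4 CPM without crystals and at 276, 370.0 and 443 and 42.2, 44.5 and 68.7 CPM with them (interaction log2FC −2.88 ± 0.32, adjusted p = 0.00134). It did not differ between the groups without crystals beyond their spread. Tmem132a (interaction log2FC −2.43 ± 0.32, adjusted p = 0.00344) and Olr1 (interaction log2FC −4.97 ± 0.70, adjusted p = 0.00509) were of the same kind. Hilpda, a lipid droplet protein (interaction log2FC −5.96 ± 0.63, adjusted p = 0.00134), had a change without crystals just short of the thresholds (log2FC −0.99 ± 0.41, adjusted p = 0.0567), which the replicate block over 6 groups called lower (log2FC −1.04, adjusted p = 0.0331). Odc1, the first enzyme of polyamine synthesis, was at 57.001, 59.4 and 60.1 and 238, 201 and 242 CPM without crystals and 156, 265 and 182 and 221, 201 and 199 CPM with them (interaction log2FC −1.91 ± 0.27, adjusted p = 0.00509). With apigenin alone it lay within the range of the WT + MSU libraries. Sqstm1, the autophagy receptor p62 (interaction log2FC −1.76 ± 0.25, adjusted p = 0.00509), and Chac1, which degrades glutathione (interaction log2FC −9.61 ± 1.05, adjusted p = 0.00239), fell in both settings and more under crystals. Chac1 had 0 counts in the WT + MSU + apigenin libraries, so its interaction is no measure of size. Casp1 (−0.90), Cd38 (−1.12) and Nlrp3 (−2.08) had interaction log2FCs that did not pass the test.

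**Figure D5:**
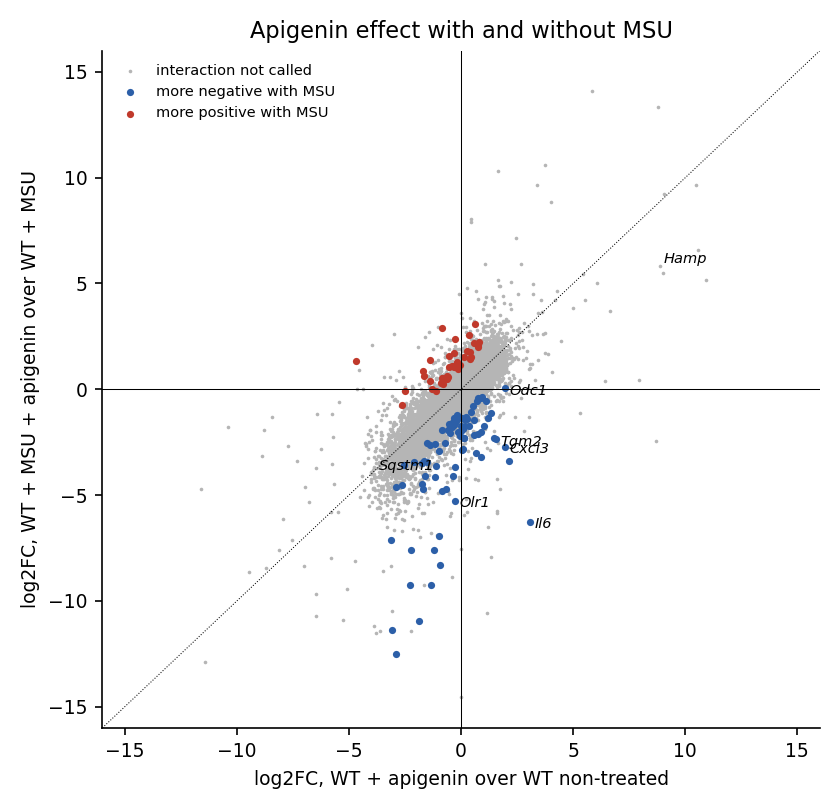
Log2FC of apigenin without crystals (x axis) and with MSU (y axis), 1 point per tested gene, with the 83 genes of a more negative interaction in blue, the 43 of a more positive one in red and the line of equal effects dotted. Most genes lie along the line, and 53 of the 83 blue points were not called with apigenin alone.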

How the data were processed

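Poly(A) RNA of cultured BMDMs was sequenced with a stranded kit. The deposited table gives the authors' read counts and FPKM per gene and library. Tools listed by the submitters, with no version, were HISAT2, StringTie, cutadapt, FastQC and edgeR. The sources used here do not give the build. All 55450 gene IDs matched GENCODE M21 (GRCm38), which supplied names, overlaps and structures. Promoters are RefSeq's, on GRCm38.p6.

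Counts were fitted in R 4.3.3 with edgeR 4.0.16 (quasi-likelihood F test, TMM factors, 6 groups in 1 fit), with Benjamini-Hochberg adjustment over the 12025 genes. The fit was tested on simulated counts in which few genes changed, as many up as down. Far more genes changed in the data, so that check does not bear on the choice of scaling. SE is the log2FC divided by the square root of F. Named genes were Cd38 and genes the study followed, the 12 largest and 12 smallest changes, the 10 genes with most counts, the 10 smallest interaction p-values, and up to 4 called members per list and direction with others whose role is described. A few genes within this rule are not reported here. The members and lists were chosen with earlier results of these data known, and the hepatocyte genes after their values were seen. Alternatives used other scalings and filters, DESeq2 1.42.0, limma 3.58.1 on log2(FPKM + a pseudocount of 0.1, 0.5 or 1), a replicate block, left-out libraries and the other label.

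Same-numbered libraries deviated together (r of 0.337, 0.266 and 0.584 between WT non-treated and WT + apigenin, and 0.142, 0.397 and 0.436 under MSU), so by the rule of r over 0.1 in every pair the numbers were taken to pair the libraries. The pairing comes from the values, since no source states it. Without MSU, replicates 1 and 2 also deviated together across numbers (r of 0.366 and 0.252), so there the values set replicate 3 apart and do not tell 1 from 2. No 2 replicates were copies, as their counts differed far beyond sampling noise.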

Additional observations from a re-analysis of the deposited data

Results flagged for a closer look

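The effect of apigenin differed between cells without and with MSU by the interaction test for 126 genes, and those named in the text are given here with their values. All of these except Dbp (2.73) had a more negative effect of apigenin under crystals. The cytokine and chemokine genes had interaction log2FCs of −6.97 for Il10, −5.38 for Osm, −4.06 for Il1b, −4.67 for Cxcl3, −3.70 for Cxcl1 and −2.95 for Vegfa. Without crystals Il1b was at 4.55, 6.84 and 8.59 CPM, and at 2.32, 4.49 and 5.75 CPM with apigenin, whereas with MSU it was at 45.7, 120.0 and 203 CPM and, with apigenin added, at 3.42, 5.71 and 4.71 CPM (interaction log2FC −4.06 ± 0.89, adjusted p = 0.0406). Il10 and Chac1 (−9.61) had 0 counts in every WT + MSU + apigenin library, so the sizes of their fitted values are no measure.

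Among receptors and regulators the interaction log2FC was −1.91 for Cd14, −4.97 for Olr1, −2.42 for Procr, −4.13 for Nr4a2, −2.88 for Ifrd1, −5.52 for Eif4e and −1.39 for Bcl2. For enzymes and other proteins it was −1.89 for Hk2, −1.91 for Odc1, −3.94 for Tgm2, −5.96 for Hilpda, −1.76 for Sqstm1 and −2.43 for Tmem132a. It was −2.57 for Upp1, −2.73 for Chst11 and −3.77 for Serpinb2. Cd14 was at 691, 887 and 823 CPM in WT + MSU and 234, 183 and 299 CPM in WT + MSU + apigenin, while without crystals the values of the groups overlapped.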

How the results depend on the processing

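Scaling had the largest effect on the calls. Against 1573 genes higher and 2664 lower, library totals gave 129 and 4470, limma on log2(FPKM + 0.5) 124 and 3998, with a pseudocount of 0.1 148 and 4418 and with 1 98 higher. An FPKM minimum of 5 left 7157 genes, of which 880 were higher and 1584 lower. Replicate 3 of both groups alone, an alternative chosen after seeing the data, gave 616 and 1511. Leaving out 1 library at a time gave 1278 to 1605 higher and 2383 to 2600 lower. For genes whose apigenin effect differed with MSU, the count of 126 went to 58 with no filter on low values, 417 with DESeq2, 82 with the compared groups only, 194 with the treatment field and 57 to 245 with 1 library left out (57 without WT non-treated replicate 2, 65 without its replicate 1, 59 without WT + MSU replicate 2, 70 without WT + MSU + apigenin replicate 1 and 245 without its replicate 3). With the replicate block it was 281 over 6 groups and 226 over the compared groups, and in the pairing the counts with apigenin alone stayed within 1.5 times (1588 and 2755, 1692 and 2844).

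Of 186 called genes named in the text, 47 were called in each of the 21 alternatives. Of 79 called higher, 49 were lost with library totals, and of 107 called lower 0. The replicate block over 6 groups lost 2 and 3 of them. With 1 library left out, 50 of them lost the call in at least 1 of 6 fits, namely Arrb1, Car2, Casp1, Ccl4, Ccl9, Cd209a, Cd74, Cd83, Cdk9, Cdkn1a, Ch25h, Chst11, Csf2ra, Ctsd, Ctsl, Cxcl14, Dbp, Dnajb9, Eif2ak3, Ftl1, Gapdh, Gpx4, H2-Aa, H2-Ab1, Hspa1b, Idi1, Ifit1bl1, Irak2, Irf5, Mdm2, Mrpl53, Msmo1, Myd88, Neat1, Osgin1, Psap, Rab43, Rpl10-ps1, Rsad2, Serpinb2, Sirt2, Spp1, Spry2, Spry4, Stard4, Taldo1, Tkt, Txnrd1, Vegfa and Zfp106. The log2FC with apigenin alone took the other sign with library totals for Cd14 (−0.56), Cxcl1 (−0.034), Hprt (−0.16), Hspa5 (−0.061), Ifrd1 (−0.63), Sirt3 (−0.18), Sod2 (−0.30) and Tmem132a (−0.56), with limma at the 3 pseudocounts for Cd14 (−0.54, −0.55), Hprt (−0.14), Hspa5 (−0.13, −0.12), Ifrd1 (−0.58, −0.60, −0.55), Sirt3 (−0.15, −0.24, −0.10), Sod2 (−0.25, −0.24) and Tmem132a (−0.52, −0.54, −0.50), with the FPKM minimum of 5 for Cd14 (−0.0081), Ifrd1 (−0.090) and Tmem132a (−0.027), with the treatment field for Egr1 (2.00), Hspa1b (1.15), Ifrd1 (−0.22), Tmem132a (−0.27) and Tnf (1.40), with replicate 3 alone for Egr1 (0.35), Olr1 (0.37), Sirt3 (−0.14) and Tnf (0.49), and with 1 library left out over a range for Cd14 (−0.069 to 0.31), Ifrd1 (−0.10 to 0.23) and Olr1 (−0.64 to 0.031), and without replicate 3 of both groups for Cd14 (−0.055). Of these genes only Hspa1b was called. The interaction log2FC took the other sign with the treatment field for Chac1 (5.15) and for Il10 (7.55), and for Il10 with limma at a pseudocount of 1 (0.0060). The causes were not tested. Genes with few counts, such as Il10, Nr4a2 and Hamp, are the least certain at this depth, and groups of 3 libraries limit the precision of every value.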

Other observations

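The 9 genes called in opposite directions without and with crystals were Upp1, Car2, Procr, Eif4e, Cxcl3, Chst11, Tgm2 and Serpinb2, higher with apigenin alone and lower under MSU, and Dbp, a clock output gene, lower alone and higher under MSU. Serpinb2, an inhibitor of plasminogen activators, was at 45.2, 41.4 and 11.97 CPM without any addition, at 129.7, 95.05 and 49.9 CPM with apigenin, at 187, 381 and 180.1 CPM with MSU and at 38.6, 74.9 and 38.9 CPM with both (interaction log2FC −3.77 ± 0.77, adjusted p = 0.0278). Dbp was at 33.5, 33.9 and 21.1, 12.4, 17.6 and 4.32, 6.19, 6.59 and 4.74 and 18.3, 18.7 and 8.06 CPM in the same order of groups (interaction log2FC 2.73 ± 0.63, adjusted p = 0.0481). Crystals themselves called 430 genes in untreated WT cells, 244 higher and 186 lower, and 7 in apigenin-treated cells, 2 higher and 5 lower, where 743 genes had an unadjusted p under 0.05 in edgeR.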
